A study of Gallus gallus with 16 samples.

Results

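The genes described here are 3 neighbours on chromosome 21 of the chicken, ENSGALG00000004771, ENSGALG00000029669 and ENSGALG00000021569. They were chosen by identifier from a count table of 24881 genes, with earlier results of these data known, in which their summed level was low in E2 cells at HH18 and HH25 and high in double-positive cells at HH18. Which contrasts led to the choice is not recorded. All contrasts between populations within HH18 or HH25 are therefore treated as having led to it and are described below without a test. All 3 passed the filter on low counts that left 14676 genes.

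The trio had been proposed under the working description of complement C1q-like genes. The deposited table pairs its identifiers with no gene names, and 0 of them matched the RefSeq table of 25635 chicken genes on the GRCg7b assembly. In that table C1QA, C1QB and C1QC are next to each other among the protein-coding genes of chromosome 21 and on no other chromosome. The assembly differs from the one used for the counts, so no symbol is given here to any of the 3 identifiers, and the working description was not checked by name. As background, C1q is the recognition molecule of the classical complement pathway. It is a secreted protein built from A, B and C chains, each with a collagen-like stem and a globular head, and it binds to antibody complexes and other targets to start the complement cascade. In mouse and human the C1q chains are made mainly by macrophages and microglia.

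Libraries were made from RNA of cells that were sorted out of the vagal region (at the level of the hindbrain) of wild-type chicken embryos electroporated with NC2:citrine and E2:citrine constructs. Both constructs hold neural crest enhancers, NC2 that of FOXD3 and E2 that of SOX10, genes for transcription factors of this migratory population; the labels name citrine for both constructs and do not say how the signals were told apart. Sorted populations were negative cells (NC2-, E2-), E2 cells (NC2-, E2+) and double-positive or DP cells (NC2+, E2+), at Hamburger-Hamilton (HH) stages HH10, HH18 and HH25, with no DP group at HH10. Each of the 8 groups had 2 libraries. Electroporation was at HH4 for the HH10 groups and at HH8 or HH9 for the HH18 and HH25 groups, so stage and time of electroporation cannot be told apart between HH10 and the later stages. The stage called HH10 in the sample records is HH12 in the column names of the table. Library numbers are those of the table's columns, which are 1 and 3 for the HH10 groups, 2 and 3 for HH25 DP cells and 1 and 2 otherwise. Negative cells are a mixture of everything in the vagal region without reporter signal, so the cell type that carries a transcript there is not given. Marker lists for neural crest, macrophages, blood and other cells could not be looked up without gene names.

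The 16 libraries held between 4032540 and 45313160 counts, with counts on 11693 to 15661 genes. The 2 shallowest were those of HH18 negative cells. Levels are counts per 1e6 counts (CPM) scaled by TMM, the trimmed mean of M-values normalization of edgeR, and errors are SD over n = 2 libraries. Whether the pair of libraries in a group came from different embryos is not stated, and p-values then reflect only how far these libraries vary, which may be technical.

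On galGal5, the build of the count table, the trio lay between 6083120 and 6090874 on the minus strand, a region of 7.75 kb. ENSGALG00000004771 (6083120 to 6085216) had 3 exon intervals that cover 1052 bases, ENSGALG00000029669 (6086545 to 6088226) had 3 that cover 929 bases, and ENSGALG00000021569 (6088915 to 6090874) had 3 that cover 1200 bases. The gaps between them were 1328 and 688 bases. In each gene the interval at the 5′ end was the shortest, at 113, 113 and 85 bases, and the interval at the 3′ end was the longest, at 691, 626 and 943 bases. No other gene in the table overlapped the region. The protein products were not analysed here. How the authors' counting handled reads that match more than 1 of these genes is not given. If such reads were shared among the genes, each gene's own level is less certain than the sum. If they were left out, the sum lacks them too.

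**Figure D1:**
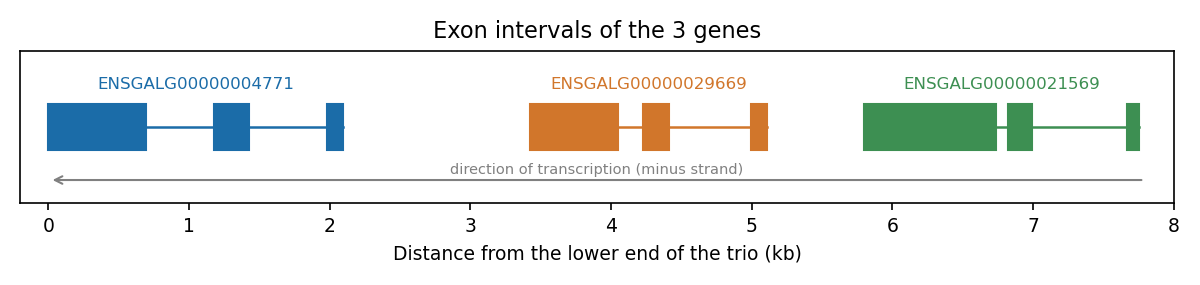
Exon intervals (boxes) and introns (lines) of the 3 genes, drawn to scale against the distance in kb from the lower end of the trio. All 3 genes have 3 exon intervals, are read in the same direction and have their longest interval at the 3′ end, with gaps of 1328 and 688 bases.

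The 3 genes had no count at HH10 and were high in negative cells at HH18 and HH25, high in DP cells at HH18, and low in the E2 cells of both later stages and in DP cells at HH25. In order of the summed mean, the groups ran from HH18 DP (773 ± 8.4 CPM) over HH25 negative (646 ± 28 CPM), HH18 negative (439 ± 46 CPM), HH18 E2 (21.5 ± 9.1 CPM), HH25 E2 (5.33 ± 4.7 CPM) and HH25 DP (3.17 ± 1.2 CPM) to the HH10 groups at 0. The libraries of neighbours in this order did not overlap, except between HH25 E2 and HH25 DP and between the HH10 groups. In bulk samples, fewer cells of a type that expresses these genes and less RNA of them per cell cannot be told apart.

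At HH10 none of the 3 genes had a count in any of the 4 libraries, out of 119689942 counts in all. With a floor of 3 counts, this allows a level of up to 0.0238 CPM over the 4 libraries, 0.0466 CPM in negative cells and 0.0489 CPM in E2 cells. Of the 14676 genes tested, 306 (2.09%) had no count in these 4 libraries. Between HH10 E2 and HH10 negative cells, 0 of the 3 genes were called by edgeR's quasi-likelihood test at an adjusted p below 0.05, 0 had an unadjusted p under 0.05, and DESeq2 called 0, against 1.66% of all genes tested called in either direction. With no count on either side, this comparison shows no difference at this depth and could not have shown one below the floor.

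In HH18 negative cells, ENSGALG00000004771 had 152 and 125 CPM in libraries 1 and 2. ENSGALG00000029669 had 182 and 183 CPM and ENSGALG00000021569 had 138 and 98.4 CPM. All 3 were far above the HH10 floor in both libraries. Compared with HH10 negative cells, where the count was 0, they were at least 2971-fold, 3916-fold and 2535-fold higher in that order, and 3 of 3 rose (edgeR quasi-likelihood test, adjusted p = 3.77e-04, 4.32e-05 and 6.32e-05). Of all genes tested, 1.96% were called higher in this comparison. The bounds were lower without HH10 negative library 1 (1947-fold, 2567-fold and 1662-fold) or library 3 (1024-fold, 1349-fold and 873-fold). The high level of HH18 negative cells belongs to the contrasts treated as having led to the choice, so the choice favoured a rise here. With no count at HH10 the 3 genes could pass the filter only through later groups. A fall was not possible, and nothing is read from the direction. The median fitted log2 fold change was 14.40 for the 3 genes, a value that depends on the prior count because HH10 was at 0, and -0.05 for all genes tested. At their bounds the middle one of the 3 is the 2971-fold of ENSGALG00000004771.

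In HH25 negative cells ENSGALG00000029669 stood at 340.1 and 279.6 CPM and ENSGALG00000021569 at 197 and 200.1 CPM, each above both HH18 negative libraries, as were 27.5% of all genes tested. ENSGALG00000004771 stood at 89.6 and 187 CPM, on both sides of its HH18 values. From HH18 to HH25 the log2 fold changes in negative cells were 0.76 ± 0.60 (standard error) for ENSGALG00000029669, 0.75 ± 0.62 for ENSGALG00000021569 and 0.00 ± 0.80 for ENSGALG00000004771. None of the 3 passed the test (edgeR quasi-likelihood, adjusted p = 0.417, 0.446 and 1), 0 had an unadjusted p under 0.05, and DESeq2 called 0. Of all genes tested, 5.32% were called higher and 9.46% lower, and the median log2 fold change was -0.04. The summed level was 1.47 times as high at HH25 as at HH18, with no overlap between the libraries, and its own test, with the trio as 1 row in place of 3, gave a log2 fold change of 0.56 with an adjusted p = 0.489.

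The libraries of HH18 E2 cells held a small but measurable amount of the 3 transcripts, and which of the sorted cells carried them was not measured. ENSGALG00000029669 was the highest of them, at 15.3 and 9.10 CPM in libraries 1 and 2 (340 and 180 counts). ENSGALG00000021569 was at 7.02 and 3.03 CPM (156 and 60 counts). ENSGALG00000004771 was at 5.58 and 2.88 CPM (124 and 57 counts). For each gene library 1 was higher than library 2. Both libraries were above the HH10 E2 libraries, as they were for 30% of all genes tested. At HH10 E2 cells had no count, so the genes were at least 250-fold (ENSGALG00000029669), 103-fold (ENSGALG00000021569) and 86.6-fold (ENSGALG00000004771) higher at HH18, and 3 of 3 rose (edgeR quasi-likelihood test, adjusted p = 3.93e-04, 0.00111 and 0.00643), where 3.80% of all genes tested were called higher. In a fit restricted to these 4 libraries none of these calls held (adjusted p = 0.118 for each gene), and without HH10 E2 library 3 that of ENSGALG00000004771 ended (adjusted p = 0.0591). The bounds rest mostly on that deep library, and without it they were 50.1-fold, 20.7-fold and 17.4-fold for ENSGALG00000029669, ENSGALG00000021569 and ENSGALG00000004771. Without HH18 E2 library 1 the bound of ENSGALG00000021569 was 62.1-fold. The HH18 E2 libraries also enter the contrasts treated as having led to the choice, as the lower side. As in negative cells, genes without a count at HH10 that passed the filter through later groups could not fall. Nothing is read from the shared direction of the 3 genes.

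Set against the negative cells of the same stage, the HH18 E2 mean was lower for each gene: 4.23 ± 1.9 against 138 ± 19 CPM for ENSGALG00000004771, a factor of 32.7. The factor was 23.5 for ENSGALG00000021569 (5.03 ± 2.8 against 118 ± 28 CPM) and 15.0 for ENSGALG00000029669 (12.2 ± 4.4 against 182 ± 0.25 CPM). Without HH18 E2 library 1 the factor of ENSGALG00000021569 was 38.9. The libraries of the groups did not overlap for 3 of 3 genes. In this comparison 23.7% of all genes tested were lower in E2 cells without overlap, and since it is treated as having led to the choice of the trio nothing is read from the count.

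DP cells at HH18 held the highest summed level, with 767 and 779 CPM in libraries 1 and 2. ENSGALG00000029669 was at 255 and 338 CPM, ENSGALG00000004771 at 277 and 252 CPM and ENSGALG00000021569 at 235 and 188 CPM. Library 2 was the higher one for ENSGALG00000029669 and the lower one for the other 2 genes, so that the sum differed less between the libraries than any single gene. All 3 genes were above both HH18 negative libraries, by factors of the means of 1.91 for ENSGALG00000004771, 1.79 for ENSGALG00000021569 and 1.63 for ENSGALG00000029669, in a comparison in which 17.0% of all genes tested were higher in DP cells without overlap. Against E2 cells of the same stage the factors were 62.5, 42.1 and 24.3 in the same order, and 15.6% of all genes tested were higher in DP than in E2 cells without overlap. Without HH18 E2 library 1 the latter factor was 69.8 for ENSGALG00000021569. Both comparisons are treated as having led to the choice of the genes and have no test here.

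At HH25 the level in DP cells was far lower. ENSGALG00000004771 was at 1.02 and 1.60 CPM in libraries 2 and 3 (13 and 67 counts), ENSGALG00000029669 at 1.64 and 0.429 CPM (21 and 18 counts) and ENSGALG00000021569 at 1.33 and 0.334 CPM (17 and 14 counts). For 3 of 3 genes both values lay below both HH18 DP libraries, as they did in 19.6% of all genes tested. From HH18 to HH25 the log2 fold change was -7.62 ± 1.1 (standard error) for ENSGALG00000004771, -8.30 ± 0.83 for ENSGALG00000029669 and -8.13 ± 0.86 for ENSGALG00000021569, and 3 of 3 fell (edgeR quasi-likelihood test, adjusted p = 0.00665, 7.20e-04 and 9.18e-04). Of all genes tested, 0.566% were called lower, and the median log2 fold change was 0.16 over all genes and -8.13 over the 3. In pooled counts the summed level was 283 times lower (95% counting interval 241 to 334, which leaves out the spread between libraries). By group means the factor was 244. It was 328 without HH25 DP library 2 and 194 without library 3. The call of ENSGALG00000004771 ended without HH25 DP library 2 (adjusted p = 0.0753) or library 3 (adjusted p = 0.0825), and those of the other 2 genes passed without any 1 of the 4 libraries. Without HH25 DP library 2 the log2 fold changes of these 2 genes were -9.41 (ENSGALG00000029669) and -9.28 (ENSGALG00000021569), and without library 3 they were -7.49 and -7.31. The high level of HH18 DP cells and the low level of HH25 DP cells both belong to contrasts treated as having led to the choice of the genes. The choice therefore favoured a fall, and the calls are not independent of it.

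E2 cells also had less of ENSGALG00000029669 at HH25 than at HH18. It had 5 counts in library 1 and 0 in library 2, a mean of 0.241 ± 0.34 CPM. Both of its libraries were below both HH18 E2 libraries, as in 24.1% of all genes tested. The log2 fold change was -5.63 ± 0.86 and the pooled counts were 51.8 times lower (95% counting interval 22.1 to 160.2), and this gene fell (edgeR quasi-likelihood test, adjusted p = 0.0192). The call ended without either HH18 E2 library (adjusted p = 0.0842 without library 1 and 0.0759 without library 2), without HH25 E2 library 2 (log2 fold change -4.67, adjusted p = 0.135) and with only these 4 libraries (0.0942). Without HH25 E2 library 1, which held all 5 counts, it passed (log2 fold change -10.98, adjusted p = 0.0182), where the fitted value depends on the prior count and the bound is at least 42.9-fold lower. The E2 levels of both stages also enter the contrasts treated as having led to the choice of the genes, and the call is not independent of it. ENSGALG00000004771, at 2.22 and 0 CPM (23 and 0 counts), was also below both HH18 E2 libraries. It had a log2 fold change of -1.93 ± 0.92 and did not pass (adjusted p = 0.480). Without HH25 E2 library 1, which held all 23 counts, it passed (log2 fold change -9.46, adjusted p = 0.0298, at least 14.9-fold lower). ENSGALG00000021569 remained at 5.98 and 1.99 CPM (62 and 21 counts), overlapping its HH18 values, with a log2 fold change of -0.34 ± 0.64 (adjusted p = 0.919). So 1 of 3 genes was called lower, where 0.157% of all genes tested were; the trio as 1 row had a log2 fold change of -2.01 (adjusted p = 0.169).

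At HH25 both labelled populations were far below negative cells for every member. The factor between negative and E2 means was 124 for ENSGALG00000004771, 1285 for ENSGALG00000029669 and 49.8 for ENSGALG00000021569. These E2 means rest on 23, 5 and 83 counts. Without E2 library 2 the factors were 62.2, 642 and 33.2. Without E2 library 1 ENSGALG00000021569 had a factor of 99.8, and the other 2 genes had no E2 count and were at least 425-fold and 1091-fold lower. Between negative and DP means the factor was 106, 299 and 239 in the same order. Without HH25 DP library 2 it was 722 for ENSGALG00000029669 and 595 for ENSGALG00000021569, and without library 3 it was 189 and 149. Without HH25 negative library 2 ENSGALG00000004771 had factors of 80.7 against E2 and 68.5 against DP cells. The libraries did not overlap for 3 of 3 genes in either comparison, while 22.2% of all genes tested were lower in E2 cells and 26.8% lower in DP cells without overlap. Between DP and E2 cells the summed levels overlapped, at 3.99 and 2.36 CPM in DP and 8.68 and 1.99 CPM in E2 libraries, and 1 gene, ENSGALG00000021569, was lower in both DP libraries, in a comparison in which 27.0% of all genes tested were lower in DP cells without overlap.

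**Figure D2:**
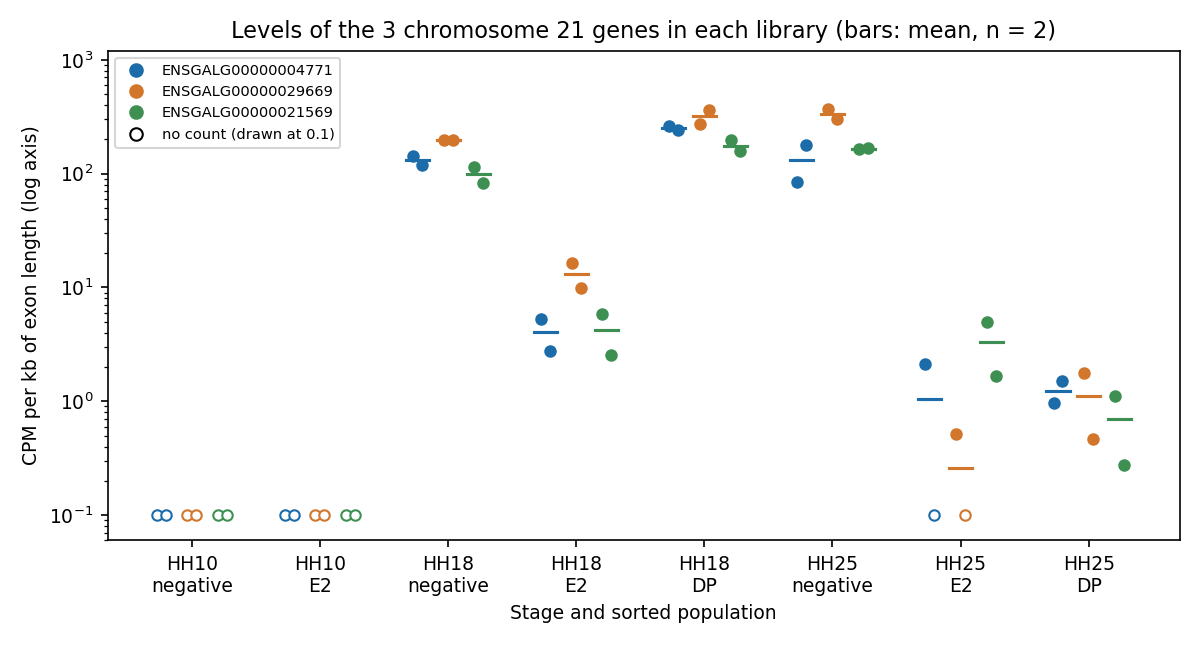
CPM per kb of exon length (log axis) of the 3 genes in each of the 16 libraries, by stage and population. Filled points are libraries, bars are group means (n = 2), and open points are libraries with no count, drawn at 0.1. For each gene, all libraries of HH18 negative, HH18 DP and HH25 negative cells lie above all libraries of the E2 groups, HH25 DP cells and the HH10 groups.

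**Figure D3:**
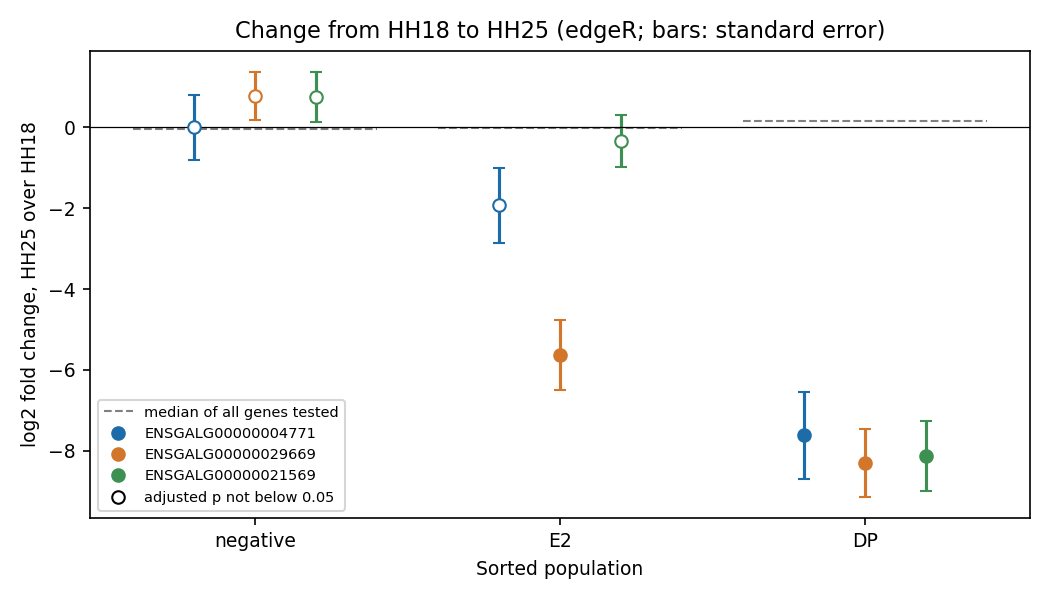
log2 fold change from HH18 to HH25 in each population with its standard error (edgeR), for the 3 genes. Filled points have an adjusted p below 0.05, and dashed lines mark the median of all genes tested. The 3 genes lie near or above 0 in negative cells, spread from -0.34 to -5.63 in E2 cells, and lie between -7.62 and -8.30 in DP cells.

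Per kb of exon length, ENSGALG00000029669 had the highest level of the 3 in each group with high levels. It was at 196 ± 0.27 CPM per kb in HH18 negative, 320 ± 63 in HH18 DP and 334 ± 46 in HH25 negative cells. ENSGALG00000004771 was at 131 ± 18, 251 ± 16 and 131 ± 65 CPM per kb in these groups, and ENSGALG00000021569 at 98.4 ± 23, 176 ± 28 and 165 ± 1.9 CPM per kb. The libraries of ENSGALG00000029669 were above those of the other 2 genes in each group. Among the 14676 genes tested, ranked by mean CPM per kb, ENSGALG00000029669 was number 657 in HH18 negative, 344 in HH18 DP and 498 in HH25 negative cells, against 5484 in HH18 E2, 13085 in HH25 E2 and 11431 in HH25 DP cells. ENSGALG00000004771 ranked 478 and ENSGALG00000021569 ranked 774 in HH18 DP cells.

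The make-up of the trio's reads, a description taken from the same counts, differed between groups and also between libraries of 1 group. Shares are percent of the counts on the 3 genes in a library, with exact Clopper-Pearson 95% intervals that cover counting error only, since PCR copies were not removed by molecular identifiers. At HH18 the share of ENSGALG00000004771 was 32.2% (30.6 to 33.7) and 30.8% (28.4 to 33.3) in negative and 36.1% (35.1 to 37.1) and 32.4% (31.6 to 33.2) in DP libraries. In E2 libraries it was lower, at 20.0% (16.9 to 23.4) and 19.2% (14.9 to 24.1). The share of ENSGALG00000029669 was 54.8% (50.8 to 58.8) and 60.6% (54.8 to 66.2) in HH18 E2 libraries, above the 38.7% and 45.0% of the negative and the 33.3% and 43.4% of the DP libraries. The share of ENSGALG00000021569 overlapped at HH18, with 25.2% and 20.2% in E2, 29.2% and 24.2% in negative and 30.6% and 24.2% in DP libraries. For the other 2 genes both E2 libraries stood apart from the other 4 of HH18 in the same way. This make-up was not particular to E2 cells. HH25 negative library 1 had 54.3% for ENSGALG00000029669 and 14.3% for ENSGALG00000004771, while HH25 negative library 2 had 42.0% and 28.0%. Between 2 groups of 2 libraries an exact two-sided permutation p cannot fall below 0.333. No test of these shares was made, also not of the HH18 E2 libraries against the other 4 of HH18.

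In HH25 E2 cells the remaining reads were mostly those of ENSGALG00000021569, with 68.9% (58.3 to 78.2) of 90 counts in library 1 and all 21 counts in library 2. That share was 25.2% and 20.2% in the HH18 E2 libraries and 31.4% and 30.0% in the HH25 negative libraries. HH25 DP cells had no common make-up: ENSGALG00000004771 held 25.5% (14.3 to 39.6) of 51 counts in library 2 and 67.7% (57.5 to 76.7) of 99 counts in library 3. HH25 negative libraries differed too, with 14.3% (13.7 to 14.9) and 28.0% (26.9 to 29.2) for the same gene, so that libraries of 1 group differed by more than counting error.

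**Figure D4:**
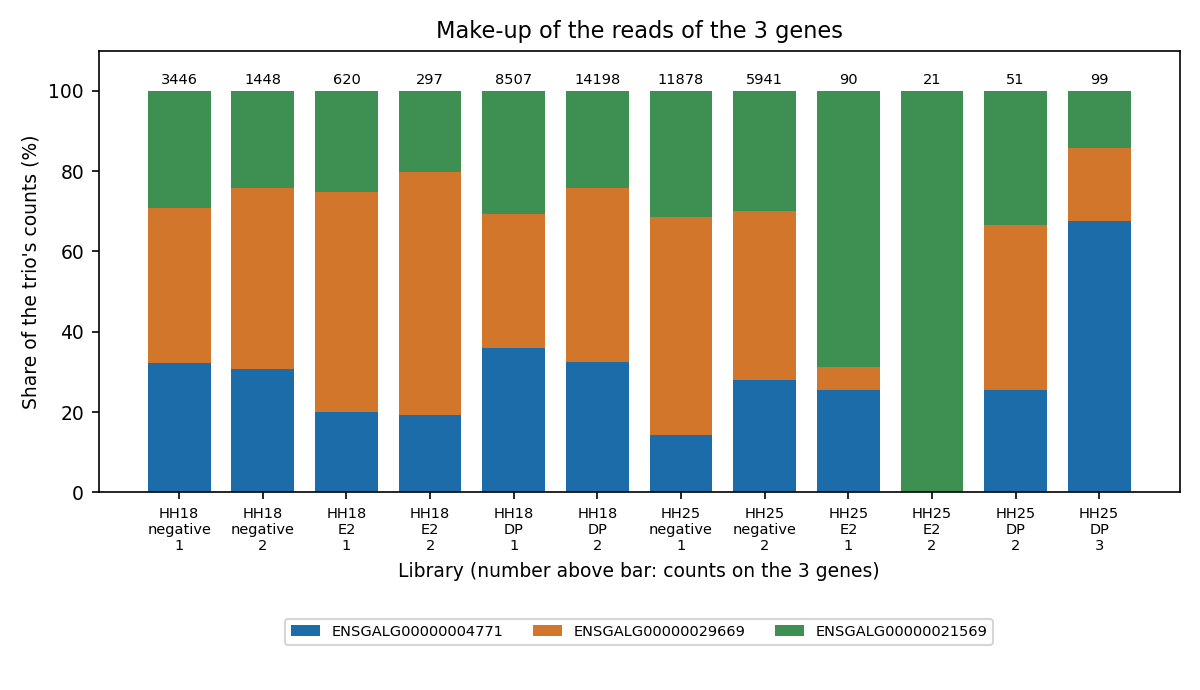
Share of each gene in the counts on the 3 genes, in percent, for the 12 libraries of HH18 and HH25; the number above a bar is the count it rests on, and libraries of HH10 had none. ENSGALG00000029669 holds 54.8% and 60.6% in the HH18 E2 libraries and ENSGALG00000021569 holds 68.9% and all of the counts in the HH25 E2 libraries. ENSGALG00000029669 also holds 54.3% in HH25 negative library 1.

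Across the 12 libraries of HH18 and HH25, which fall into a high and a low cluster, the 3 genes varied together, with Pearson r of log2 CPM of 0.96 for ENSGALG00000004771 and ENSGALG00000029669 and of 0.92 for each of the other pairs. These values describe the split between the clusters and are no measure within them.

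The nearest genes in the table did not share the profile. On the side of lower coordinates, ENSGALG00000004741 (5954684 to 6063215, minus strand, 16 exon intervals) lies 19.9 kb away and had group means between 4.97 ± 2.3 CPM in HH18 negative and 19.5 ± 19 CPM in HH25 DP cells. Its lowest mean was that of HH18 negative cells, where the trio was high, and it was present at HH10, at 15.0 ± 12 CPM in negative cells. Its libraries varied widely. The HH18 negative libraries, at 3.37 and 6.57 CPM, overlapped those of HH10 E2 (0.0811 and 16.2 CPM) and HH25 DP cells (6.18 and 32.8 CPM). On the other side, ENSGALG00000021567 (6128022 to 6154299, minus strand, 20 exon intervals) lies 37.1 kb away, had 0.836 ± 0.29 CPM in HH10 negative cells and no count in the other 7 groups, and did not pass the filter. Within 100 kb of the trio there were 4 other genes, of which 2 were tested.

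Genes elsewhere in the genome had profiles much like that of the trio. Likeness was measured as Pearson r of log2 CPM (prior count of 2) with the summed trio over the 16 libraries, which share stage, population and depth, and is given as a description. The 4 genes most alike were ENSGALG00000032717 on chromosome 19 (382462 to 383326, r = 0.974), ENSGALG00000038636 on chromosome 23 (270344 to 284774, r = 0.974), ENSGALG00000007713 on chromosome 18 (10504470 to 10508384, r = 0.974) and ENSGALG00000000775 on chromosome 25 (2580940 to 2585553, r = 0.971). By Spearman's rho 2 of the 4 were among the 4 highest. Of 14673 other genes tested, 33 (0.225%) had r above 0.9, spread over 18 chromosomes. None was on chromosome 21, which held only 251 of the 14676 genes tested, so nothing is read from this. Of the 33 genes, 9 had no count at HH10.

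Of these, ENSGALG00000032717 had no count at HH10, 370 ± 1.5 CPM in HH18 negative, 12.4 ± 7.3 in HH18 E2, 648 ± 37 in HH18 DP, 743 ± 108 in HH25 negative, 4.42 ± 4.2 in HH25 E2 and 27.1 ± 9.3 CPM in HH25 DP cells. In HH25 DP cells both of its libraries (20.5 and 33.7 CPM) were above both trio sums. The same held for ENSGALG00000038636 (14.2 and 14.8 CPM), ENSGALG00000000775 (6.01 and 6.89 CPM) and ENSGALG00000007713 (4.15 and 4.31 CPM). ENSGALG00000038636 and ENSGALG00000000775 followed the same order at HH18, with 540 ± 3.0 and 316 ± 63 CPM in DP, 362 ± 40 and 185 ± 30 CPM in negative and 15.6 ± 10 and 9.39 ± 3.2 CPM in E2 cells. ENSGALG00000007713 had a narrower range, from 1.50 ± 0.063 CPM in HH10 E2 to 37.2 ± 9.0 CPM in HH18 DP cells. Unlike the trio it had counts at HH10, with 2.20 ± 1.1 CPM in negative cells. So did ENSGALG00000038636 and ENSGALG00000000775, at 0.426 ± 0.034 and 0.474 ± 0.033 CPM in HH10 negative cells and without a count in HH10 E2 cells. ENSGALG00000007713 was also lower in HH25 negative (22.9 ± 4.2 CPM) than in HH18 negative cells (30.7 ± 3.8 CPM), where the summed trio was higher at HH25.

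Compared with the 33 genes of r above 0.9, the trio was near the low end for its remaining level in HH25 DP cells. By group means, the summed level in HH25 DP cells was 0.411% of that in HH18 DP cells. The median of the 33 genes was 4.19%, and 31 of them were above the trio. The excess of HH18 DP over HH18 negative cells, 1.76 in the trio, had a median of 1.27 in these genes and was larger than that of the trio in 3. In HH18 E2 cells, at 4.89% of the negative level, the trio lay in the middle of these genes, whose median was 5.07%. These genes were chosen for their likeness, so the values describe them and test nothing. The trio was itself chosen with its high level in HH18 DP cells known. That choice favoured a large HH18 DP excess and a low remaining level at HH25. A sum of 3 genes is also set against single genes here.

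A pair of other runs of 3 neighbouring genes were high in HH25 negative cells but had another profile before that stage. The run on chromosome 3 (107900662 to 107917298) had 3389 ± 114 CPM in HH25 negative cells and 29.7 and 229 CPM in the HH18 negative libraries, a mean of 3.81% of its HH25 level. The run on chromosome 2 (4018778 to 4023803) had 1097 ± 120 CPM in HH25 negative cells and 12.7 and 42.6 CPM in the HH18 negative libraries, a mean of 2.52%. The trio was already at 67.9% of its HH25 negative level at HH18. In HH18 DP cells, where the trio was highest, the run on chromosome 3 was at 0.941 ± 1.1 CPM and the run on chromosome 2 at 0.325 ± 0.30 CPM. These differences between runs were not tested.

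**Figure D5:**
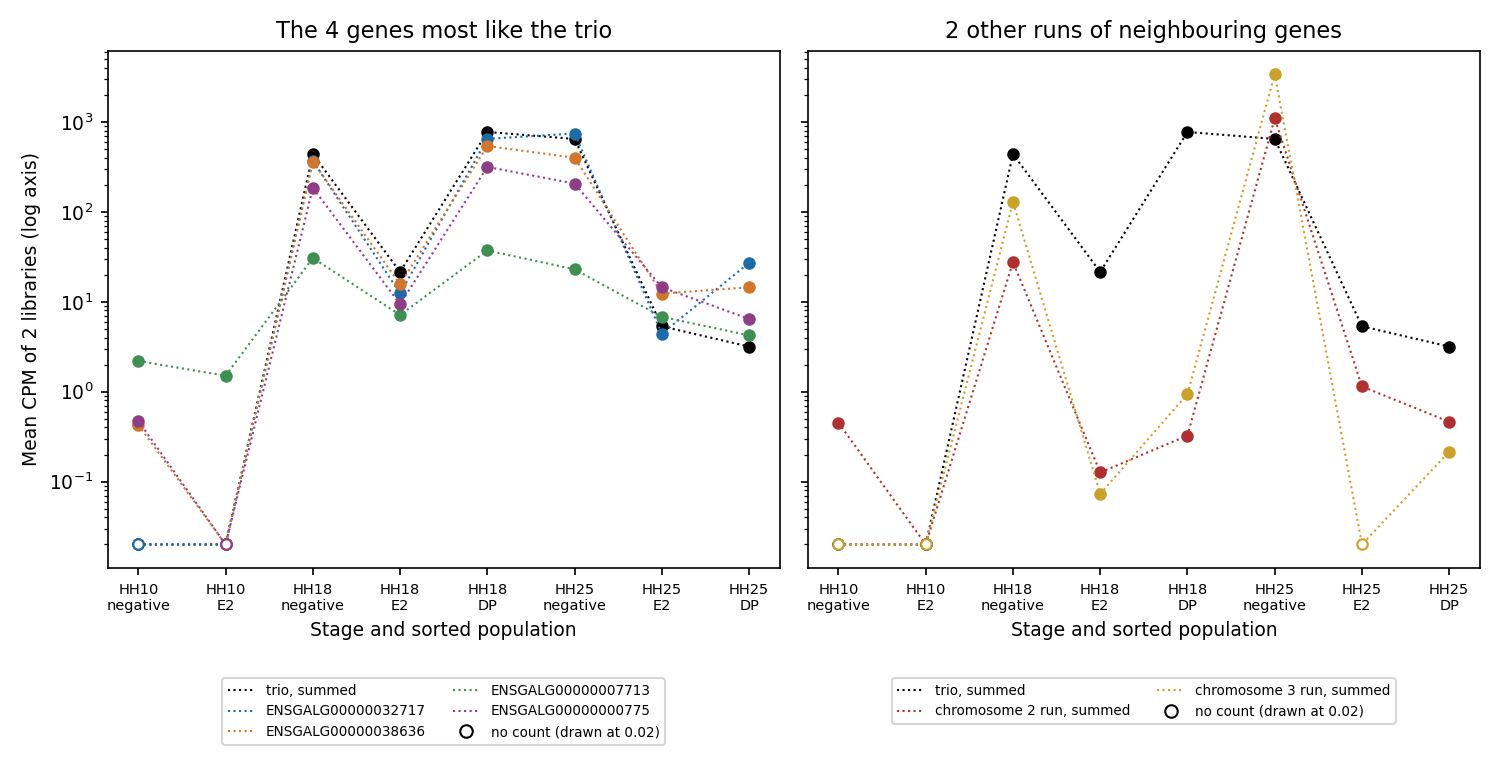
Mean CPM of 2 libraries (log axis) in the 8 groups for the summed trio, drawn in both panels, with the 4 genes most like it on the left and the summed runs on chromosomes 2 and 3 on the right. Open points had no count and are drawn at 0.02, and dotted lines only join the points of 1 gene or run. In HH18 DP cells the trio is at 773 CPM, 3 of the 4 like genes are between 316 and 648 CPM, and both runs are below 1 CPM.

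A joint pattern was defined from the trio's own levels, so the trio meets it by construction. The shares below only describe how many of the genes tested meet each part, and nothing about the trio is read from them. Both HH18 E2 libraries were below the HH18 negative and DP libraries in 8% of the genes, the HH25 E2 and DP libraries were below both HH25 negative libraries in 14.5%, and both held in 2.66%. With no count at HH10 as well, 36 genes remained (0.245%), among them the 3 of the trio, which were chosen with this pattern known.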

How the data were processed

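The values that the authors deposited are whole-number read counts of each gene in 16 libraries, not normalized. Per the submitters' processing notes STAR 2.4.2a, featureCounts of Subread 1.4.5 and DESeq2 were used with galGal5; how strand and multiply matching reads were handled is not given in the sources used here. Per the labels' protocols, cDNA was made from RNA of sorted cells with a SMART-Seq low-input kit. The test was the quasi-likelihood F test of edgeR 4.0.16 under R 4.3.3 after TMM scaling and filterByExpr (defaults, 14676 genes left). One model of 8 group means was fitted to all 16 libraries (8 residual degrees of freedom), and p-values were adjusted by Benjamini-Hochberg over all genes tested. A gene was called at an adjusted p below 0.05. Standard errors are the log2 fold change divided by the square root of F. DESeq2 1.42.0 was an alternative. A fold against a group at 0 is a lower bound against 3 counts over the group, the smaller of the values from pooled counts and from the mean of the libraries. The tests were checked on simulated data. The simulation gave all genes the same fixed spread and set no group to 0. It therefore does not cover calls against groups without counts, such as those at HH10. Tests are given for HH10 E2 against negative cells and for stage changes, of which the stage changes share libraries with the contrasts treated as having led to the choice of the genes. The members, the comparison runs and the lists were chosen with earlier results of these data known. The genes named are the 3 members, the nearest gene on each side and the 4 most alike. Libraries with the same number could not be shown to be paired.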

Additional observations from a re-analysis of the deposited data

Results flagged for a closer look

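The order of DP and negative cells was opposite at HH18 and HH25 for the sum and for each gene, with every library of a group on the same side. DP minus negative was 334.3 CPM at HH18 and -643.2 CPM at HH25 for the sum. For ENSGALG00000004771 it was 126.2 and -136.8 CPM, for ENSGALG00000029669 114.5 and -308.8 CPM, and for ENSGALG00000021569 93.67 and -197.6 CPM. These differences were not tested, since each is made from contrasts treated as having led to the choice of the genes. Without overlap, 17.0% of all genes tested were higher in DP than in negative cells at HH18. At HH25, 26.8% were lower in DP cells. The share of genes with both was not counted.

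From HH18 to HH25 the libraries of negative cells moved up and those of DP cells down for the sum, ENSGALG00000029669 and ENSGALG00000021569, while ENSGALG00000004771 overlapped between stages in negative cells. HH25 minus HH18 for the sum was 207.7 CPM in negative cells, -769.9 CPM in DP cells and -16.12 CPM in those with E2 signal alone. For ENSGALG00000029669 it was 127.5, -295.8 and -11.96 CPM in the same order. For ENSGALG00000021569 it was 80.43 CPM in negative and -210.9 CPM in DP cells, with overlap in E2 cells. The difference in negative cells did not pass its own test for any gene (edgeR), and the difference between populations was not tested. Without overlap, 27.5% of all genes tested were higher at HH25 than at HH18 in negative cells. In DP cells 19.6% and in E2 cells 24.1% were lower at HH25. The share of genes with opposite directions was not counted.

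DP minus E2 changed sign between stages for ENSGALG00000021569, at 206.7 CPM at HH18 and -3.153 CPM at HH25. The HH25 value rests on only 31 counts in DP and 83 counts in E2 cells. For the sum and the other genes the HH25 libraries of DP and E2 cells overlapped. Without overlap, 15.6% of all genes tested were higher in DP than in E2 cells at HH18. At HH25, 27.0% were lower in DP cells. The share of genes with both was not counted, and the change of sign was not tested.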

How the results depend on the processing

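The calls on the 3 genes were kept in direction under every alternative run, and no called change reversed. The runs were DESeq2, its size factors in edgeR, no filter, only the libraries compared, a replicate block and each library left out. Rises from the HH10 groups, which had no count, could not reverse, so nothing is read from their kept direction. Only the falls from HH18 to HH25 could have reversed. With only the libraries compared, 0 members were called between HH10 and HH18 E2 cells and 0 between HH18 and HH25 E2 cells. With 1 library left out, between 0 and 2 members were called in the latter comparison. The cause was not tested. Folds of means and bounds without each library were added after seeing the data.

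Counts over all genes moved more. DESeq2 called 811 genes between HH10 E2 and negative cells, 1076 and 3574 for the stage changes of negative cells, 2060 and 511 for those of E2 cells and 1195 for that of DP cells, against 243, 358, 2170, 711, 63 and 139 with edgeR. Only the libraries compared gave 0, 1955, 28 and 61 in the HH10 comparison, HH10 to HH18 negative, HH10 to HH18 E2 and HH18 to HH25 DP cells. Without a filter HH18 to HH25 gave 112 in E2 and 251 in DP cells. With 1 library left out the counts ran from 127 to 354 (HH10), 121 to 239 and 707 to 2342 (negative), 315 to 620 and 0 to 73 (E2) and 28 to 103 (DP).

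The numbers in the table's columns were tried as a replicate block, though no label says that they mark a shared embryo or day, and same-numbered libraries of 1 stage had correlations of deviations between -0.12 and 0.28. It called 77 genes between HH18 and HH25 DP cells and ended the call of ENSGALG00000004771 there (adjusted p = 0.0747).

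The summed level was 763 CPM in HH18 DP and 618 CPM in HH25 negative cells without TMM, and 685 CPM in the latter with DESeq2-type size factors. By Spearman's rho 2 of the 4 most alike genes were the same. Per kb of exon length in place of counts, the mean share of ENSGALG00000029669 at HH18 was 46.3% in place of 41.8% in negative and 62.3% in place of 57.7% in E2 cells. At HH25 the low groups rest on 111 (E2) and 150 (DP) counts over both libraries, so that the level of a single gene there is set by few reads.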
